A study of Mus musculus with 123 samples.

Results

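CC040/TauUnc is 1 strain of the Collaborative Cross (CC), a panel of recombinant inbred mice whose genomes are mosaics of a shared set of founder strains, so that mice of one strain are near copies of each other and strains differ at many genes at once. Liver gene expression of 6 female CC040/TauUnc mice was compared with that of female mice of 21 other CC strains, out of 123 mice on the arrays. Members were taken by the strain named in the labels, 3 CC040/TauUnc mice fed the high-protein (HP) diet and 3 fed the high-fat high-sucrose (HS) diet, set beside 60 HP-fed and 56 HS-fed mice of the other strains. All were 6 to 9 weeks old when received, spent 2 weeks on a synthetic chow and 8 weeks on HP or HS, and were fasted for 4 h before the liver was taken. Each replicate was a separate mouse, and the 6 mice stand for 1 inbred genotype. No other treatment or allele was named for any group. A CC059/TauUnc mouse on HS was left out, because its profile correlated across genes at r = 0.738 with CC035/Unc and at r = 0.127 with the strain on its label.

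The liver is mostly hepatocytes, which make plasma proteins, clear drugs and steroids, and run amino acid, sugar and lipid metabolism. In mice many hepatocyte genes for steroid and drug metabolism are expressed at very different levels in females and males, under the control of the pattern of growth hormone release. Kupffer cells, the resident macrophages, sinusoidal endothelial cells and vitamin A-storing stellate cells make up most of the rest. Inbred strains are known to differ strongly at such genes, often because a single variant near a gene sets its level.

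Values are RMA-normalised array signals on the log2 scale, where 1 unit is a doubling, and array medians of all 123 mice lay between 2.97 and 3.16. Each of the 6 CC040/TauUnc mice was closest to its own strain: its gene-centred profile correlated at 0.616 to 0.699 with the mean of the other 5, and at no more than 0.124 with the mean of any other strain. *Xist*, transcribed from the inactive X chromosome of females, was 10.23 to 10.62 in the 6 CC040/TauUnc mice. It was 2.72 in 1 CC071/TauUnc mouse on HP, which was kept. Of 13 measured hepatocyte markers, such as *Alb* (albumin) and *Hnf4a* (a hepatocyte transcription factor), 0 differed between CC040/TauUnc and the other mice, with a median difference of −0.003. Over all genes 5.45% differed, so 0 of 13 lies near that share. The sample labels gave neither the week of study nor the array plate of a mouse, and the part of these in any difference was not tested.

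Between CC040/TauUnc and the other strains, 596 of 10942 genes tested differed, which is 5.45% of them (limma with diet as a covariate, Benjamini-Hochberg adjusted p under 0.05). In CC040/TauUnc, 209 genes (1.91%) were higher and 387 (3.54%) were lower. Over all genes the median difference was −0.003 and the median size 0.11, and over the 596 called genes the median size was 0.56. Differences of at least 1 unit, a doubling or more, were found for 42 genes that were higher and 60 that were lower. The mean of CC040/TauUnc was the highest of the 22 strain means for 263 genes (2.40%) and the lowest for 413 (3.77%). On average a strain is the highest for 1 in 22 genes and the lowest for as many, and both shares lie below that. All 6 CC040/TauUnc mice lay above all the other mice for 1 gene (0.00914%), *Arsa*, and below all of them for 0 genes. Because the 6 mice share a genotype, the comparison was also fitted with strain as a random block, which lowers the weight of mice of the same strain. It used 1 correlation between mice of a strain, 0.311, for all genes, so the 6 mice still count as more than 1 strain. For genes with 2 levels in the panel, whose mice agree closely within a strain, its p values may be too small. That fit called 66 genes, 17 higher and 49 lower, and all 66 were among the 596. For the genes below, its adjusted p is called the strain-block adjusted p.

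For *Miox*, *Ces2b* and *Gdpd3*, among the genes that were far higher in CC040/TauUnc, a few other strains were as high and the rest were lower by several units. Detection calls were not used here, and levels of about 2 to 3 are at or below the array medians, so for genes that low in one of the groups the difference is given on the log2 scale with no fold. *Miox*, which encodes myo-inositol oxygenase, the enzyme that opens the inositol ring and is best known from kidney, was 7.72 to 8.47 in CC040/TauUnc mice (median 8.15), against 2.27 to 8.70 in the other mice (median 3.17). Its 6 CC040/TauUnc values were well apart from the bulk of the other mice but not from the 12 that were also high, and the strain means of CC036/Unc (8.28) and CC032/GeniUnc (8.13) were as high as that of CC040/TauUnc (8.12), with CC028/GeniUnc next at 3.87. The difference of 4.40 ± 0.65 (SE) was the largest among the higher genes (adjusted p = 2.62e-07, strain-block adjusted p = 6.94e-06). *Ces2b*, a carboxylesterase that cleaves ester drugs and lipids, was 6.74 to 7.37 in CC040/TauUnc mice (median 7.17), against 1.37 to 7.57 in the other mice (median 2.28). It was higher by 4.03 ± 0.79 (adjusted p = 1.96e-04, strain-block adjusted p = 0.00457), and CC063/Unc, CC032/GeniUnc and CC011/Unc had means of 7.15, 7.14 and 7.11, beside 7.13 in CC040/TauUnc. *Gdpd3*, a lysophospholipase D, was 6.68 to 7.70 in CC040/TauUnc mice (median 7.03), against 2.10 to 8.89 in the other mice (median 3.15). Its difference was 3.39 ± 0.68 (adjusted p = 2.71e-04, strain-block adjusted p = 0.00436), with 3 strains above CC040/TauUnc and the next below at 3.32.

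For 2 of the largest differences CC040/TauUnc had the highest strain mean. *Zfp872*, a zinc finger protein, was 7.35 to 8.42 in CC040/TauUnc mice (median 7.96), against 1.59 to 8.16 in the other mice (median 3.23), a difference of 4.12 ± 0.67 (adjusted p = 3.83e-06, strain-block adjusted p = 4.53e-04). The next strain, CC012/GeniUnc, had a mean of 7.69, so these neighbours in the order lay within the SD of CC040/TauUnc (0.45). CC036/Unc followed at 7.43. *Adgrf1*, an adhesion G protein-coupled receptor, was 6.08 to 7.67 in CC040/TauUnc mice (median 7.05), against 1.84 to 7.67 in the other mice (median 4.76), and was 5.29-fold higher (adjusted p = 0.00182, strain-block adjusted p = 0.044). *Cyp46a1*, the cholesterol 24-hydroxylase, was 9.41 to 10.16 in CC040/TauUnc mice (median 9.77), against 3.73 to 10.63 in the other mice (median 5.68). It was 9.53-fold higher (adjusted p = 0.0058, strain-block adjusted p = 0.0448), second to CC002/Unc. CC037/TauUnc (9.70), CC011/Unc (9.47) and CC036/Unc (9.17) had means beside that of CC040/TauUnc (9.78), so a high level was not its alone. *Sult1e1*, the oestrogen sulfotransferase, averaged 8.19 ± 0.99 in CC040/TauUnc mice and 5.01 ± 2.22 in the other mice (SD). *Cd209b*, a C-type lectin of macrophages and endothelium, was 5.65 to 7.44 in CC040/TauUnc mice (median 6.85), against 2.64 to 7.87 in the other mice (median 4.24). CC011/Unc (7.35), CC024/GeniUnc (7.28), CC008/GeniUnc (7.21) and CC071/TauUnc (7.17) had higher means than CC040/TauUnc (6.79). *Ccr3*, the eotaxin receptor, averaged 5.48 ± 0.36 in CC040/TauUnc mice and 3.60 ± 1.34 in the other mice. *Tdpoz2* averaged 6.87 ± 0.39 in CC040/TauUnc mice and 4.72 ± 1.13 in the other mice. These 4 genes were called when mice were the replicates (adjusted p = 0.0166, 0.0105, 0.0205 and 8.21e-04) but not with the strain block (0.208, 0.139, 0.265 and 0.0614). The call for *Ccr3* was lost without HS replicate 1 or any 1 of the 3 HP mice (adjusted p up to 0.0788, without HP replicate 1). That for *Sult1e1* was lost without HP replicate 2, HS replicate 1 or HS replicate 2 (adjusted p up to 0.06, without HP replicate 2).

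*Arsa*, arylsulfatase A, a lysosomal enzyme that removes sulfate from sulfatide lipids, was the gene without overlap. In the CC040/TauUnc mice it was 6.11, 5.95 and 6.12 on HP and 5.78, 6.00 and 5.93 on HS, against 4.04 to 5.78 in the other mice (median 4.90). The gap between the lowest CC040/TauUnc mouse (5.782) and the highest other mouse (5.777) was small beside the difference of the means, 1.08 ± 0.13 (adjusted p = 8.7e-10, strain-block adjusted p = 0.00117). *Odf3b*, a gene between *Miox* and *Arsa* on chromosome 15 that was looked at after its values were seen, was also higher in CC040/TauUnc (6.75 ± 0.50, against 5.79 ± 0.57 in the other mice, adjusted p = 0.00218), but not with the strain block (adjusted p = 0.289). *Pde1a*, a calcium-dependent phosphodiesterase, and *Lyplal1*, a lysophospholipase-like protein, were chosen likewise. *Pde1a* was 5.41 to 5.94 in CC040/TauUnc mice (median 5.67), against 3.17 to 5.68 in the other mice (median 4.25), and 1 of them lay above the lowest CC040/TauUnc mouse. *Lyplal1* was 8.13 to 8.30 in CC040/TauUnc mice, with an SD of 0.06, against 6.65 to 8.40 in the other mice. Both were called in both fits (strain-block adjusted p = 6.16e-04 and 0.0348).

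**Figure D1:**
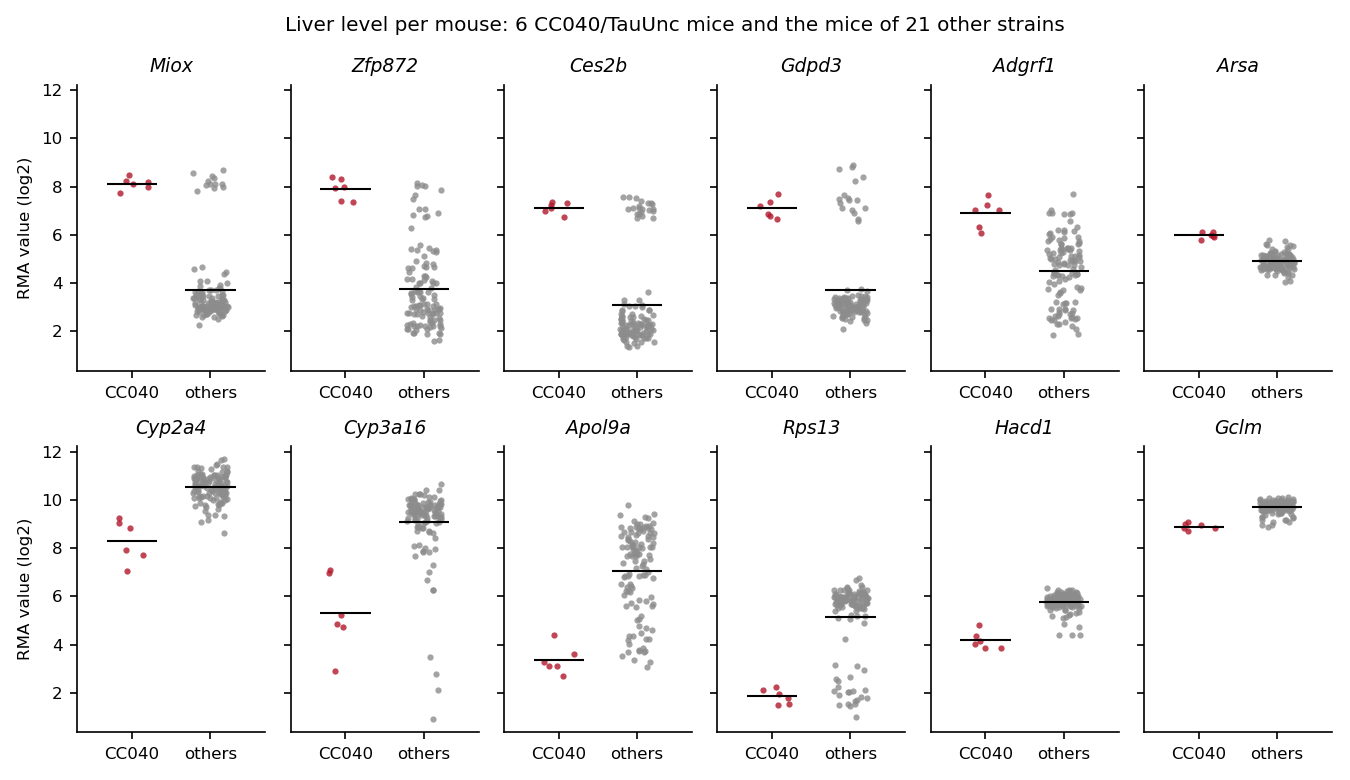
RMA values (log2) of 12 genes called in both fits, with 1 point per mouse, in 6 CC040/TauUnc mice (left of each panel) and the mice of 21 other strains (right), and bars at the group means. *Miox*, *Ces2b*, *Gdpd3* and *Rps13* split the other mice into a high and a low cluster with CC040/TauUnc in the smaller one, while *Arsa* has no overlap and *Hacd1*, *Cyp2a4* and *Gclm* have little.

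Among the genes that were lower in CC040/TauUnc, the most uniform differences were of moderate size. *Hacd1*, a dehydratase of very-long-chain fatty acid synthesis, had the smallest p of all genes in both fits and was picked out after its values were seen. It was 3.87 to 4.80 in CC040/TauUnc mice (median 4.09), against 4.39 to 6.36 in the other mice (median 5.81), with 4 of the other mice below the highest CC040/TauUnc mouse. Its difference was −1.59 ± 0.15 (adjusted p = 6.98e-15, strain-block adjusted p = 1.74e-08). *Mrrf*, a mitochondrial ribosome recycling factor, and *Tspan15*, a tetraspanin that partners the protease ADAM10, were chosen in the same way. *Mrrf* was 6.44 to 6.77 in CC040/TauUnc mice, against 6.44 to 7.58 in the other mice, and 1 other mouse lay below its highest CC040/TauUnc value. *Tspan15* was 3.49 to 4.67 in CC040/TauUnc mice, against 4.18 to 7.05 in the other mice. With the strain block, adjusted p = 4.18e-05 for *Mrrf* and 2.92e-04 for *Tspan15*.

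Of the largest differences downwards, those of *Rps13* and *Hsd3b2* were of genes with 2 levels in the panel, and that of *Apol9a* of a gene whose strain means were graded. *Apol9a*, an apolipoprotein L family member, was 2.72 to 4.39 in CC040/TauUnc mice (median 3.20), against 3.06 to 9.79 in the other mice (median 7.66), a difference of −3.67 ± 0.72 (adjusted p = 1.75e-04, strain-block adjusted p = 0.00606). CC040/TauUnc had the lowest strain mean, and CC035/Unc followed at 3.49. *Rps13*, a ribosomal protein gene, was 1.51 to 2.24 in CC040/TauUnc mice (median 1.87), against 1.02 to 6.77 in the other mice (median 5.81), with means within 1 unit of CC040/TauUnc in 4 strains (adjusted p = 1.27e-04, strain-block adjusted p = 0.00362). *Hsd3b2*, a 3β-hydroxysteroid dehydrogenase of steroid synthesis, was 1.54 to 3.33 in CC040/TauUnc mice (median 2.64), against 1.54 to 7.97 in the other mice (median 6.03), with a difference of −2.84 ± 0.67 (adjusted p = 0.00273, strain-block adjusted p = 0.044). CC071/TauUnc had a lower mean (2.42, beside 2.57), and CC036/Unc (2.67), CC045/GeniUnc (2.79) and CC004/TauUnc (2.92) were nearly as low. The strain-block p of such a gene may be too small. *Serpina1d*, one of several near-identical copies of the α1-antitrypsin gene, had the largest difference of all (−5.89 ± 1.74, adjusted p = 0.0247). It was 0.97, 1.80 and 1.76 on HP and 3.30, 4.59 and 1.93 on HS in CC040/TauUnc mice, against 1.22 to 12.49 in the other mice (median 10.31), and 38 other mice lay below the highest CC040/TauUnc mouse. It was not called with the strain block (adjusted p = 0.136), nor without HS replicate 3 or any 1 of the 3 HP mice (adjusted p up to 0.0862, without HP replicate 1). *Camk1d*, a calcium-dependent kinase, was 4.42 to 5.11 in CC040/TauUnc mice (median 4.82), against 3.34 to 9.20 in the other mice (median 7.58). *9930111J21Rik2* was 1.34 to 2.98 in CC040/TauUnc mice (median 1.57), against 1.08 to 6.13 in the other mice (median 5.09). For *9930111J21Rik2* 5 strains had lower means, down to 1.49 in CC071/TauUnc. *Camk1d* and *9930111J21Rik2* lost their call with the strain block (adjusted p = 0.0857 and 0.196), and *9930111J21Rik2* without any 1 mouse but HS replicate 2. A poorer match of the probes to a strain's sequence cannot be told apart from less RNA.

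A part of the genes that mouse liver expresses more in females than in males were lower in these CC040/TauUnc females. The female- and male-biased lists used here were written after values of some of their genes were seen, so their counts are a description. Of 35 measured female-biased genes, 12 were lower and 0 higher, beside 3.54% lower and 1.91% higher over all genes, 29 had differences below 0, and the median difference was −0.73. Of 20 measured male-biased genes, 2 were higher and 0 lower, 15 had differences above 0, and the median was 0.44. *Cyp2a4*, a steroid 15α-hydroxylase, had the smallest p of them. It was 7.91, 9.03 and 9.23 on HP and 7.72, 7.06 and 8.85 on HS in CC040/TauUnc mice, against 8.64 to 11.69 in the other mice (median 10.59). Only 3 of the other mice lay below the highest CC040/TauUnc mouse, the mean was the lowest of 22 strains, and the gene was 4.68-fold lower (−2.23 ± 0.24, adjusted p = 1.96e-12, strain-block adjusted p = 4.44e-06). *Cyp3a16*, a female steroid and drug hydroxylase, was 2.90, 6.97 and 7.08 on HP and 4.84, 5.24 and 4.75 on HS in CC040/TauUnc mice, against 0.91 to 10.66 in the other mice (median 9.49). It was 13.6-fold lower (−3.77 ± 0.63, adjusted p = 7.6e-06, strain-block adjusted p = 0.00399), with CC001/Unc, at 3.64, the only strain below.

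Of 5 measured bile acid and steroid sulfotransferases of the Sult2a family, 4 were lower, and *Sult2a6*, at −1.88, did not pass (adjusted p = 0.387). *Sult2a1* was 1.45, 5.67 and 5.43 on HP and 3.45, 1.68 and 1.59 on HS in CC040/TauUnc mice, against 1.34 to 9.47 in the other mice (median 7.68), a difference of −3.75 ± 0.88 (adjusted p = 0.00256). *Sult2a2* was 3.33, 8.17 and 7.89 on HP and 5.48, 5.25 and 3.77 on HS in CC040/TauUnc mice, against 3.37 to 10.35 in the other mice (median 8.86), a difference of −2.66 ± 0.64 (adjusted p = 0.00346). HP replicate 1 was the lowest CC040/TauUnc mouse for *Sult2a1*, *Sult2a2* and *Cyp3a16*, several units below the other HP mice. *Sult2a3* and *Sult2a5* were lower by 3.19 and 1.89 (adjusted p = 0.0166 and 0.0148). None of these Sult2a genes was called with the strain block (adjusted p = 0.136 for *Sult2a1* to 0.342 for *Sult2a5*). CC036/Unc and CC059/TauUnc had means as low as CC040/TauUnc for *Sult2a1* (2.81 and 3.08, beside 3.21) and *Sult2a3* (2.25 and 2.12, beside 2.23). For *Sult2a2* and *Sult2a5* CC040/TauUnc had the lowest strain mean. Without HP replicate 1 *Sult2a2* was not called (adjusted p = 0.0604), nor was *Sult2a3* without HP replicate 2, HS replicate 2 or HS replicate 3 (up to 0.0612). The members are close paralogs next to each other on chromosome 7, and signal may be shared between them. *Hamp2*, the second hepcidin gene, averaged 4.67 ± 1.03 in CC040/TauUnc mice and 8.03 ± 1.94 in the other mice (adjusted p = 0.00261, strain-block adjusted p = 0.0686). CC030/GeniUnc (3.64) and CC001/Unc (4.44) had lower means. *Akr1c18*, the 20α-hydroxysteroid dehydrogenase that inactivates progesterone, averaged 3.24 ± 0.81 in CC040/TauUnc mice and 7.41 ± 3.30 in the other mice (adjusted p = 0.0449, strain-block adjusted p = 0.229), and its call was lost without any 1 of the 6 mice (adjusted p of at least 0.0573). For *Akr1c18* 4 strains had lower means, down to 2.82 in CC019/TauUnc. *Cyp3a44*, *Sult3a1* and the anion transporters *Slc22a26* and *Slc22a27* were lower by 1.72, 1.75, 0.99 and 0.73. Leaving out HS replicate 2 or HS replicate 3 ended the call of *Sult3a1* (adjusted p = 0.0861 and 0.0769), and leaving out any of 4 mice that of *Slc22a27* (up to 0.269, without HS replicate 2). With the strain block 2 of the 12 calls remained, *Cyp2a4* and *Cyp3a16*, and without any 1 of the 6 mice between 8 (without HP replicate 1 or HS replicate 2) and 11 female-biased genes were called.

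The 2 male-biased genes that were called both act on steroids. *Hsd3b5*, a male steroid dehydrogenase, was 5.56, 5.06 and 5.65 on HP and 6.24, 6.30 and 6.41 on HS in CC040/TauUnc mice, against 0.85 to 7.06 in the other mice (median 2.49), with a difference of 2.70 ± 0.69 (adjusted p = 0.00678, strain-block adjusted p = 0.215). Its strain mean was 5.87 in CC040/TauUnc, beside 6.05 in CC004/TauUnc, 5.79 in CC036/Unc and 5.62 in CC027/GeniUnc. *Cyp2d9*, a male 16α-hydroxylase, was 6.40 to 7.11 on HP and 6.84 to 7.89 on HS in CC040/TauUnc mice, against 2.07 to 7.98 in the other mice (median 4.92), and was 3.97-fold higher (adjusted p = 0.00814, strain-block adjusted p = 0.207). It was not called without HS replicate 2 (adjusted p = 0.0538). Other sex-biased genes did not pass. The female-biased *Cyp2b9* and *Cyp2b13* had differences of +1.58 and +1.80 (adjusted p = 0.587 and 0.507), and the male-biased *Cyp7b1*, which hydroxylates oxysterols, and *Slco1a1*, an anion transporter, had −0.02 and +1.66 (adjusted p = 0.993 and 0.478). Of 22 measured growth hormone and STAT5 responsive genes, 1 was called (*Hsd3b5*), beside 5.45% of all genes in either direction. Of 3 measured major urinary protein genes 0 were called.

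**Figure D2:**
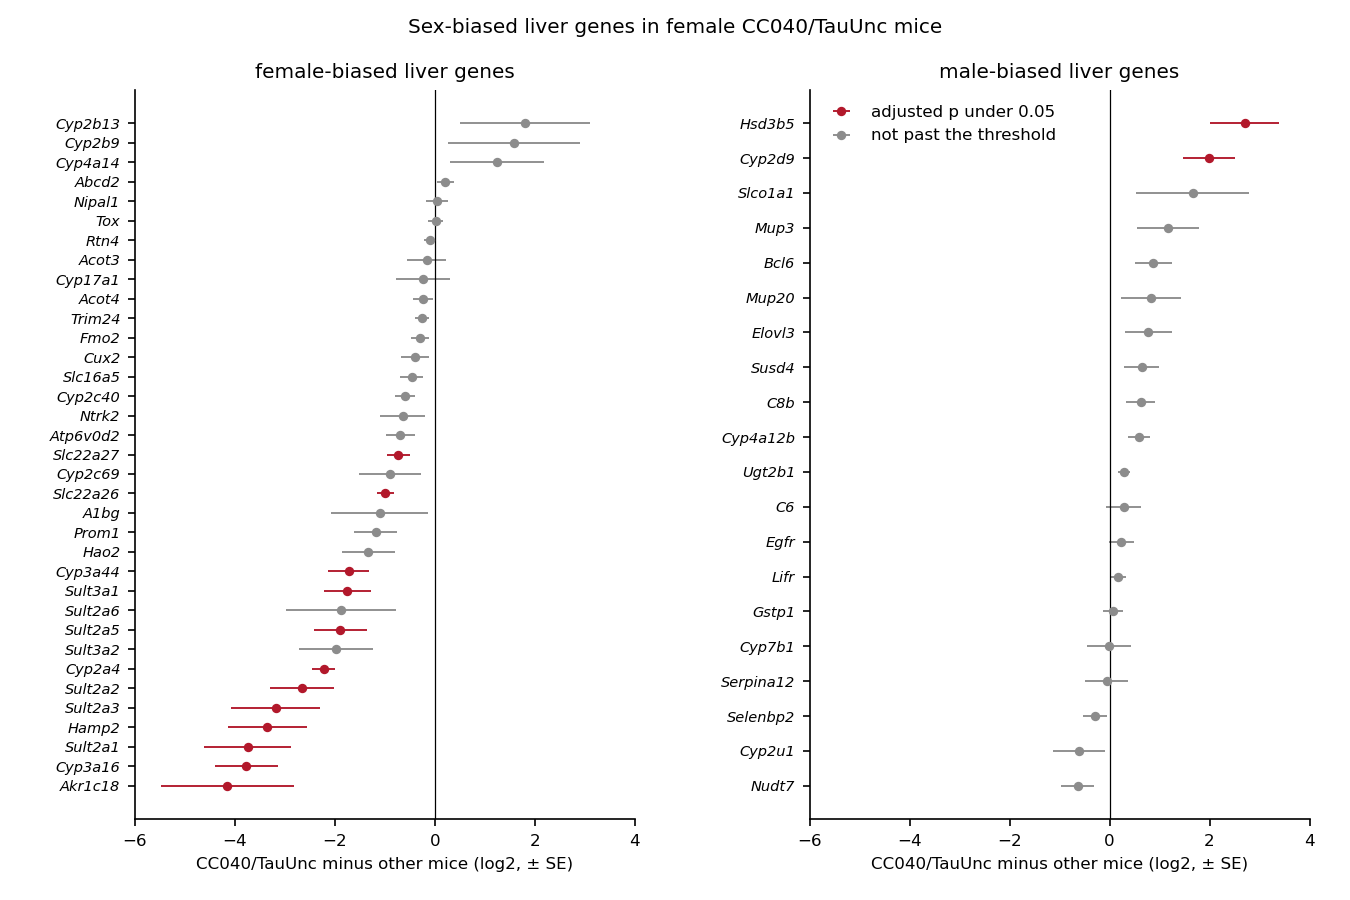
Difference of CC040/TauUnc minus the other mice (log2, ± SE) for 35 female-biased and 20 male-biased liver genes, with genes past the threshold in red and the others in grey. The 12 female-biased genes in red lie between −0.73 and −4.15, while *Cyp2b13* and *Cyp2b9* lie above 0, and *Hsd3b5* and *Cyp2d9* are the 2 male-biased genes in red.

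A subset of interferon response genes was higher in CC040/TauUnc. Of 30 measured, 7 were higher, beside 1.91% of all genes, 0 were lower and 23 were not called, 27 had differences above 0, and the median difference was 0.49, beside −0.003 over all genes. *Usp18*, the protease that removes ISG15 from proteins and damps interferon signalling, was 8.27, 8.21 and 8.01 on HP and 8.03, 7.83 and 7.49 on HS in CC040/TauUnc mice, against 3.35 to 8.55 in the other mice (median 6.50). It had the highest of 22 strain means and was 3.04-fold higher (adjusted p = 0.00932). *Irf7*, the transcription factor that amplifies the response, was 7.77 to 8.83 in CC040/TauUnc mice (median 8.36), against 4.69 to 9.54 in the other mice (median 7.15), or 2.42-fold higher (adjusted p = 0.0217). *Isg15*, the ubiquitin-like modifier itself, was 5.75 to 6.91 in CC040/TauUnc mice (median 6.19), against 3.98 to 7.64 in the other mice (median 5.33), or 1.99-fold higher (adjusted p = 0.00473, and 0.0503 without HP replicate 1). The oligoadenylate synthetase family genes *Oasl1*, *Oas2* and *Oas3*, which sense or answer double-stranded RNA, were higher by 0.98, 0.96 and 0.68, and *Rsad2*, the antiviral protein viperin, by 0.77. All 7 calls were lost with the strain block (adjusted p = 0.199 for *Usp18* to 0.548 for *Rsad2*). Without 1 mouse at a time 2 to 7 of the 30 were called, 2 without HP replicate 1 and 4 without HP replicate 3, with medians of 0.43 to 0.61.

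By the mean of the 30 genes, CC040/TauUnc ranked 5 of 22 strains, so a high level was not its alone. The 6 mice had means of 6.93, 6.51 and 6.74 on HP and 6.79, 6.36 and 6.46 on HS, against 5.21 to 7.47 in the other mice (median 6.10). CC024/GeniUnc, CC027/GeniUnc, CC001/Unc and CC030/GeniUnc had higher means. Markers of Kupffer cells were on the same side. All 16 measured had differences above 0 (median 0.42), and 1 was called, *Fcgr1*, the high-affinity Fc receptor of macrophages (+0.81, adjusted p = 0.0419, strain-block adjusted p = 0.715), and it stayed called only when the mouse left out was HS replicate 3 (adjusted p up to 0.159, without HP replicate 3). The log2 of their summed level ran from 11.79 to 12.15 in CC040/TauUnc mice and from 10.13 to 12.81 in the other mice. The part of macrophage content in the interferon gene levels was not tested. Of 8 measured lymphocyte markers 0 were called, with a median of −0.14. The Kupffer cell and lymphocyte counts stand beside 5.45% of all genes called in either direction.

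The element through which these genes are known to be induced, the interferon-stimulated response element, was looked for as the letters GAAA, any 2 bases, and GAAA again, on either strand of the 250 bases before the RefSeq start of each gene (GRCm38.p6). It was found for 12 of the 22 measured interferon genes with a promoter in the table, and for 3.46% of all 27025 genes there. Of the 7 called genes 5 had a promoter in the table and 3 of these held a match. Their windows of 30 bases are shown 5′ to 3′ on the strand of the gene, to let the repeated GAAA blocks be seen, with matches in capitals.
*Isg15*, chr4:156200871-156200900, minus strand, from 82 bases before the start: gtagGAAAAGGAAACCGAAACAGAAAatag
*Oas3*, chr5:120777715-120777744, minus strand, from 85 bases before the start: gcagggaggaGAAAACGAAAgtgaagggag
*Rsad2*, chr12:26456553-26456582, minus strand, from 130 bases before the start: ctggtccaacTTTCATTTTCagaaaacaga
*Isg15* held 3 overlapping matches, *Oas3* 1, and *Rsad2* 1 that reads GAAAATGAAA on the opposite strand. *Irf7* and *Oasl1* had no match in this window. A match is a feature of the reference sequence and says nothing of binding in these livers, and no sequence of CC040/TauUnc was used.

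**Figure D3:**
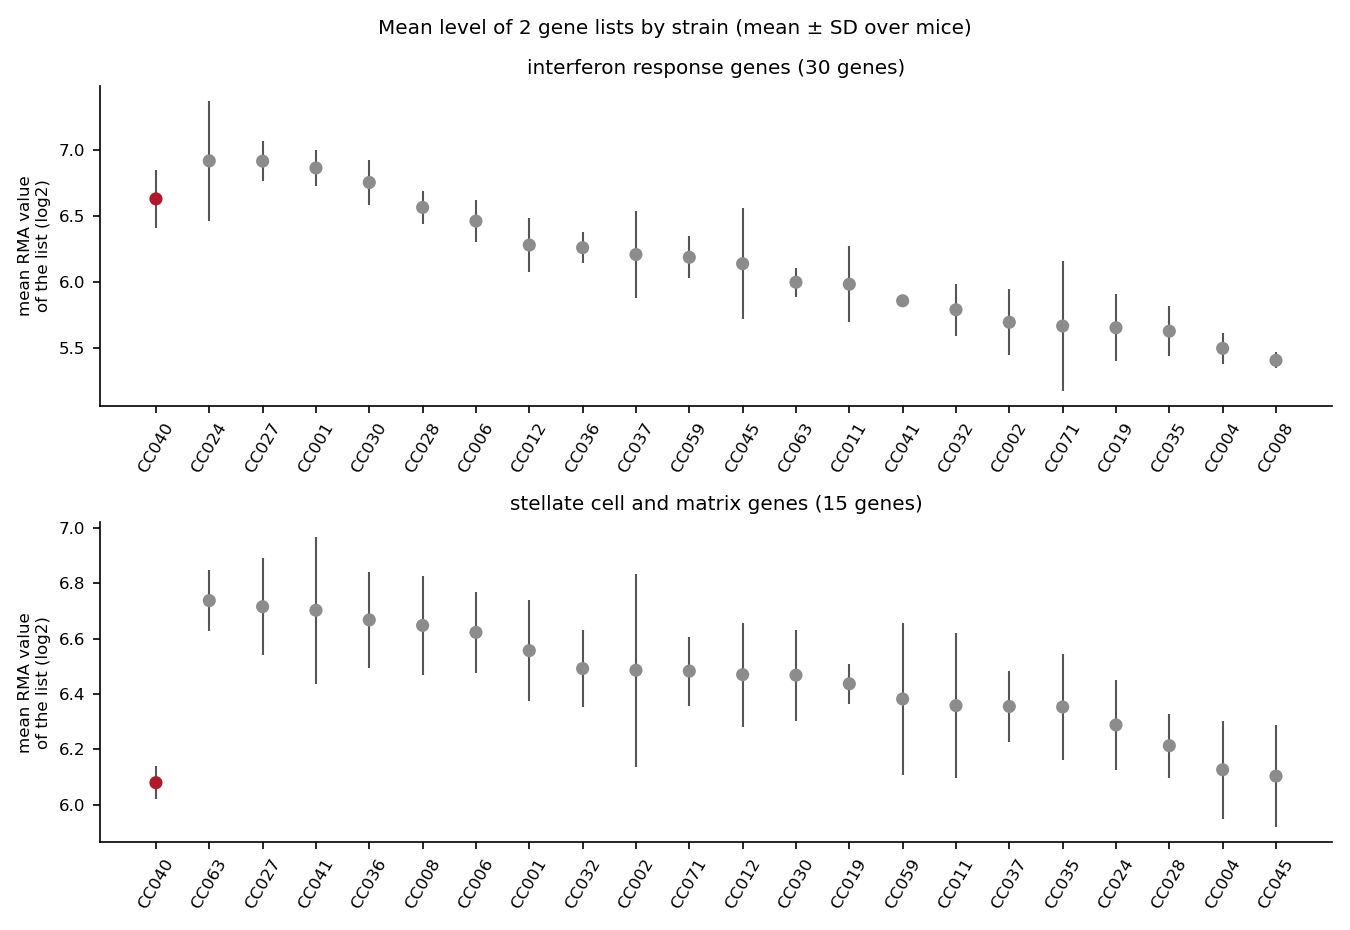
Mean RMA value (log2) over 30 interferon response genes (top) and 15 stellate cell and matrix genes (bottom) in each of 22 strains, CC040/TauUnc in red at the left and the others in order of their mean, with bars of ± SD over the mice of a strain. CC040/TauUnc ranks 5 of 22 for interferon genes and lowest for stellate genes, with CC045/GeniUnc and CC004/TauUnc nearly as low.

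Most stellate and endothelial cell genes had differences below 0 in CC040/TauUnc, and 2 of each list were called lower, beside 3.54% of all genes. In whole liver, fewer cells of a type and less RNA per cell cannot be told apart. Of 15 stellate cell and matrix genes, 14 had differences below 0 (median −0.26) and 2 were called. *Rgs5*, a regulator of G protein signalling in pericytes, was 7.65, 7.73 and 7.40 on HP and 7.54, 7.74 and 7.08 on HS in CC040/TauUnc mice, against 7.73 to 10.23 in the other mice (median 8.66), of which 1 lay below the highest CC040/TauUnc mouse (−1.09 ± 0.19, adjusted p = 1.13e-05, strain-block adjusted p = 0.011). *Lrat*, which esterifies vitamin A for storage, was 5.89 to 6.94 in CC040/TauUnc mice (median 6.61), against 6.19 to 8.31 in the other mice (median 7.28), a difference of −0.82 ± 0.16 (adjusted p = 2.47e-04, strain-block adjusted p = 0.116). *Cygb*, cytoglobin, a haem protein of stellate cells outside the list that was picked out after its values were seen, was 4.04 to 5.15 in CC040/TauUnc mice (median 4.73), against 4.62 to 7.29 in the other mice (median 6.06). It fell by 1.35 on the log2 scale (strain-block adjusted p = 0.00967). Over the 15 genes the mean was 5.97 to 6.13 in the 6 CC040/TauUnc mice, against 5.82 to 7.05 in the other mice. The strain mean, 6.08 ± 0.06 (SD, n = 6), was the lowest of 22. CC045/GeniUnc (6.10 ± 0.19) and CC004/TauUnc (6.13 ± 0.18) were nearly as low, so a low level was not particular to CC040/TauUnc. Collagen genes did not pass (*Col1a1* −0.48, adjusted p = 0.273, and *Col3a1* −0.24, adjusted p = 0.675). Of 14 endothelial markers, 12 had differences below 0 (median −0.16) and 2 were called, both lowest of 22 strains. Over the 14 markers the mean was 7.80, 7.97 and 8.00 on HP and 7.78, 7.79 and 7.35 on HS in CC040/TauUnc mice. The other mice had a median of 7.92, and the strain mean ranked 19 of 22 from the highest. Without HS replicate 3 the median difference was −0.09. *Cdh5*, VE-cadherin, averaged 7.73 ± 0.33 in CC040/TauUnc mice and 8.62 ± 0.38 in the other mice (adjusted p = 2.12e-05, strain-block adjusted p = 0.0264). *Kdr*, the VEGF receptor, averaged 7.79 ± 0.28 in CC040/TauUnc mice and 8.19 ± 0.21 in the other mice (adjusted p = 0.00136, strain-block adjusted p = 0.209).

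Among detoxifying enzymes the carboxylesterases went both ways. Of 18 measured carboxylesterases and flavin monooxygenases, *Ces2b* was higher and *Ces1b*, *Ces1c* and *Ces1d*, neighbours on chromosome 8, were lower. *Ces1b* was 5.44 to 5.82 in CC040/TauUnc mice (median 5.62), against 5.27 to 10.03 in the other mice (median 8.08), or 5.01-fold lower (adjusted p = 1.59e-05, strain-block adjusted p = 4.53e-04). *Ces1d*, a triglyceride hydrolase, was 1.97-fold lower and *Ces1c*, the plasma esterase, 1.26-fold (strain-block adjusted p = 0.289 and 0.405). Of 17 targets of Nrf2, the transcription factor of the oxidative stress response, 3 were lower, beside 3.54% of all genes, and 0 higher (median −0.18). *Gclm*, the regulatory subunit of the enzyme that limits glutathione synthesis, was 8.82, 8.70 and 8.84 on HP and 9.07, 8.95 and 8.98 on HS in CC040/TauUnc mice, against 8.87 to 10.11 in the other mice (median 9.75). Of these, 4 lay below its highest CC040/TauUnc value (−0.80 ± 0.10, adjusted p = 1.86e-09, strain-block adjusted p = 6.32e-05). The efflux pumps *Abcc3* and *Abcc4* fell by 0.75 and 1.04 on the log2 scale, and *Abcb1a*, the drug pump P-glycoprotein, was 2.30-fold lower. None of these 3 was called with the strain block (adjusted p = 0.323, 0.253 and 0.217), nor was *Abcc3* without HP replicate 3 (0.0614). *Cyp2a5*, a coumarin hydroxylase whose near-identical copy is *Cyp2a4*, was 4.07 to 5.28 on HP and 3.96 to 5.11 on HS in CC040/TauUnc mice, with a difference of −1.12 (adjusted p = 0.0172), lost with the strain block (adjusted p = 0.593) and without HP replicate 1 (0.141) or HS replicate 1 (0.0776). *Gstm7*, a glutathione transferase, was 1.71-fold higher (adjusted p = 0.0166), but not with the strain block (adjusted p = 0.203), nor without HP replicate 3 or HS replicate 3 (0.0554 and 0.0588). Beside 5.45% of all genes in either direction, 4 of 19 sulfotransferases and glucuronosyltransferases (1 higher, 3 lower), 3 of 19 Cyp2a, Cyp2d and Cyp2j enzymes (1 higher, 2 lower), 2 of 16 Cyp3a and Cyp4 enzymes (both lower) and 3 of 25 drug and anion transporters (all lower) were called, each of them named above. *Ephx2*, the soluble epoxide hydrolase, which was chosen after its values were seen, was 8.45 to 8.78 in CC040/TauUnc mice, against 7.96 to 10.75 in the other mice (median 10.22), and was called in both fits (strain-block adjusted p = 0.0401). CC004/TauUnc and CC032/GeniUnc (both 8.56) and CC001/Unc (8.65) had means beside that of CC040/TauUnc (8.58).

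Among proteins that hepatocytes secrete, of 36 acute phase and complement genes 2 were lower and 0 higher (median −0.007), and of 20 coagulation genes 1 was lower and 1 higher, beside 5.45% of all genes in either direction. *Apcs*, serum amyloid P, was 7.92, 9.59 and 8.23 on HP and 7.97, 8.25 and 7.75 on HS in CC040/TauUnc mice, against 8.35 to 11.56 in the other mice (median 9.88). HP replicate 2 stood apart from the other 5, and the difference was −1.57 ± 0.28 with all 6 mice (adjusted p = 2.66e-05, strain-block adjusted p = 0.00967). *F12*, coagulation factor XII, was 10.14 to 10.34 in CC040/TauUnc mice, against 9.64 to 11.19 in the other mice (median 10.88), with a difference of −0.59 ± 0.11 (strain-block adjusted p = 0.00943). *Proz*, protein Z of plasma, was higher by 0.21 ± 0.05 (adjusted p = 0.00629, strain-block adjusted p = 0.379).

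The calls in metabolic lists, of 0 to 4 genes a list, were lost with the strain block except *Apol9a*. Over all genes 5.45% were called in either direction. Counts here such as 2 of 52, 2 of 31, 1 of 23 or 1 of 30 lie near or below that share. *Fgf21*, a hormone of the fasted liver, was 6.06, 6.10 and 4.88 on HP and 6.54, 5.84 and 5.33 on HS in CC040/TauUnc mice, against 3.35 to 6.70 in the other mice (median 4.77). *Plin2*, the coat protein of lipid droplets, was 9.65 to 10.41 in CC040/TauUnc mice, against 8.60 to 10.61 in the other mice. Both had the highest of 22 strain means and were the only 2 of 31 fatty acid oxidation and PPAR alpha target genes called (adjusted p = 0.0159 and 0.0245), and both calls were lost without HP replicate 1, HP replicate 2 or HS replicate 1. *Scp2*, sterol carrier protein 2, was 10.84 to 11.43 in CC040/TauUnc mice (median 11.11), against 9.94 to 11.42 in the other mice (median 10.56), with a difference of 0.58 ± 0.12 (adjusted p = 4e-04, strain-block adjusted p = 0.0911). *Khk*, the kinase that starts fructose breakdown, and *Gckr*, which holds glucokinase in the nucleus, fell by 0.50 and 0.30 on the log2 scale (adjusted p = 0.0108 and 0.00814). *Dgat1*, which makes triglyceride, fell by 0.29 (adjusted p = 0.0306), a call lost without HP replicate 3, HS replicate 1 or HS replicate 2 (up to 0.172, without HP replicate 3). *Gldc*, of the glycine cleavage system, and *Hgd*, of tyrosine breakdown, were higher by 0.60 and 0.22 and were the 2 called of 52 amino acid catabolism and urea cycle genes. *Gldc* was lost without HP replicate 1 or HP replicate 3 (adjusted p = 0.0575 and 0.051), and *Hgd* without these or HS replicate 2 or HS replicate 3 (up to 0.138). Of 40 respiratory chain subunits 4 were lower, beside 3.54% of all genes, and 0 higher, *Ndufb3* by 0.85, *Uqcrq* by 0.34, *Atp5c1* by 0.28 and *Atp5j* by 0.27, and 32 had differences below 0 (median −0.07). *Uqcrq* was not called without HP replicate 1, HP replicate 3 or HS replicate 3 (adjusted p up to 0.146, without HS replicate 3), and *Atp5c1* without any 1 mouse but HP replicate 2. Of 30 cytosolic ribosomal protein genes, *Rpl7a* was lower (−0.18, adjusted p = 0.0273) and 28 had differences below 0 (median −0.18). *Rpl7a* was not called with arrays centred on their medians or quantile-normalised again (adjusted p = 0.062 and 0.0511), nor without HS replicate 1, HS replicate 3, HP replicate 1 or HP replicate 3 (up to 0.131). Genes of de novo lipogenesis, with *Dgat1* the only call of 23, and of cholesterol synthesis, with 0 calls of 20, had medians of −0.05 and 0.09. Clock genes (17 measured) had 0 calls.

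The share of genes called differed between chromosomes, which is given as a description with no test. It was 11.3% of 541 genes on chromosome 3, 8.90% of 629 on chromosome 1 and 8.35% of 814 on chromosome 2, beside 5.45% of all genes. Low shares were 1.47% of 272 on chromosome 18, 2.26% of 310 on the X chromosome and 2.35% of 554 on chromosome 6. Runs of at least 3 tested neighbours that were all called occurred 14 times. One on chromosome 2 held *Trdmt1* (−0.71), *Vim* (−0.65), *Hacd1* (−1.59) and *Stamos* (+0.94), and another *Med22*, *Rpl7a*, *Surf1* and *Surf2*, which were lower by 0.18 to 0.49. On chromosome 3 the neighbours *Gm4450*, *Hsd3b5* and *Hsd3b2* differed by +1.74, +2.70 and −2.84. The 4 Sult2a genes on chromosome 7 and *Ces1b*, *Ces1c* and *Ces1d* on chromosome 8 formed runs of their own. In 9 of the 14 runs the neighbours differed in opposite directions.

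The second question was how CC040/TauUnc responded to HP against HS, with 3 mice on each diet and the spread estimated within strain and diet over all 122 mice. Of 10942 genes, 0 were higher on HP (0%) and 2 were lower (0.0183%). In the other 21 strains together, 1215 were higher on HP (11.1%) and 1241 lower (11.3%). Those calls rest on 60 mice against 56, so the counts cannot be compared as sizes of the response. At an unadjusted p under 0.05, CC040/TauUnc had 479 of the 10942 genes. That is not above the share of 0.05 that this level gives with no diet effect. *Aox3*, an aldehyde oxidase that oxidises drugs and vitamin A aldehyde, was 10.22, 9.34 and 9.48 on HP and 11.14, 10.70 and 10.11 on HS. The diets overlapped by 1 mouse, and the difference was −0.97 ± 0.20 (adjusted p = 0.0364). The gene was also lower on HP in the other strains (−0.37 ± 0.05, adjusted p = 6.25e-10), in 21 of 21. *Mir669k*, the annotated site of a microRNA, whose probes report on whatever transcript crosses it, was 2.38, 3.03 and 3.13 on HP and 4.50, 4.33 and 4.68 on HS, without overlap (−1.66 ± 0.35, adjusted p = 0.0408), with −0.12 ± 0.08 in the other strains (adjusted p = 0.287). Neither passed when the 6 mice were fitted alone, which called 0 genes, and neither was called with the excluded CC059/TauUnc mouse kept. *Mir669k* was not called without any 1 of the 6 mice, and *Aox3* not without HP replicate 2, HP replicate 3, HS replicate 1 or HS replicate 2.

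Other genes came close without passing. *Gtdc1*, a glycosyltransferase-like gene, was 5.89, 5.82 and 5.94 on HP and 5.26, 5.29 and 5.15 on HS, without overlap (+0.65 ± 0.14, adjusted p = 0.0684), and was higher on HP in the other strains too (+0.31 ± 0.03, adjusted p = 5.56e-12). *Serpina4-ps1*, a serpin pseudogene, had the widest difference. It was 4.57, 3.53 and 3.45 on HP and 9.69, 7.86 and 7.54 on HS, a difference of −4.51 ± 1.02 (adjusted p = 0.0859), beside −1.69 ± 0.24 in the other strains. *Cyp17a1*, the steroid 17α-hydroxylase, was 10.19, 10.25 and 10.72 on HP and 9.31, 7.98 and 8.99 on HS (+1.63 ± 0.46, adjusted p = 0.49), beside +0.97 ± 0.11 in the other strains. *Ctsl*, the lysosomal protease cathepsin L, and *Idh2*, the mitochondrial isocitrate dehydrogenase, had +0.46 and +0.58 in CC040/TauUnc, beside +0.28 and +0.31 in the other strains. *Nox4*, an NADPH oxidase, and *Pcp4l1* had −1.20 and −1.24 in CC040/TauUnc, beside −0.28 and −0.74 in the other strains.

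Where the other strains responded strongly to diet, CC040/TauUnc values mostly had the same sign. The mice of the 2 estimates are different animals, though they share the estimate of the spread. Among 72 genes called in the other strains with a difference of at least 0.5, the CC040/TauUnc difference had the same sign for 68 (94.4%), with a median size of 0.56 in CC040/TauUnc and 0.64 in the other strains, and the 2 differences correlated across these genes at r = 0.826, genes not being independent replicates. Among all 2456 genes called in the other strains 67.6% had the same sign, and among the 8486 not called 53.2%. The 10 genes with the largest difference in each direction in the other strains all had the same sign in CC040/TauUnc, where 0 of them were called. *Acmsd*, which steers tryptophan away from NAD synthesis, had +1.16 ± 0.45 in CC040/TauUnc and +1.18 ± 0.10 in the other strains. *Nnmt*, which methylates nicotinamide, had +1.65 ± 0.53 in CC040/TauUnc and +0.85 ± 0.12 in the other strains. *Slco1a1* had −1.51 ± 0.75 in CC040/TauUnc and −1.73 ± 0.17 in the other strains. *Slc22a7*, an organic anion transporter, had −1.31 ± 0.38 in CC040/TauUnc and −1.03 ± 0.09 in the other strains, and *Csad*, of taurine synthesis, −1.18 ± 0.53 in CC040/TauUnc and −0.86 ± 0.12 in the other strains.

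**Figure D4:**
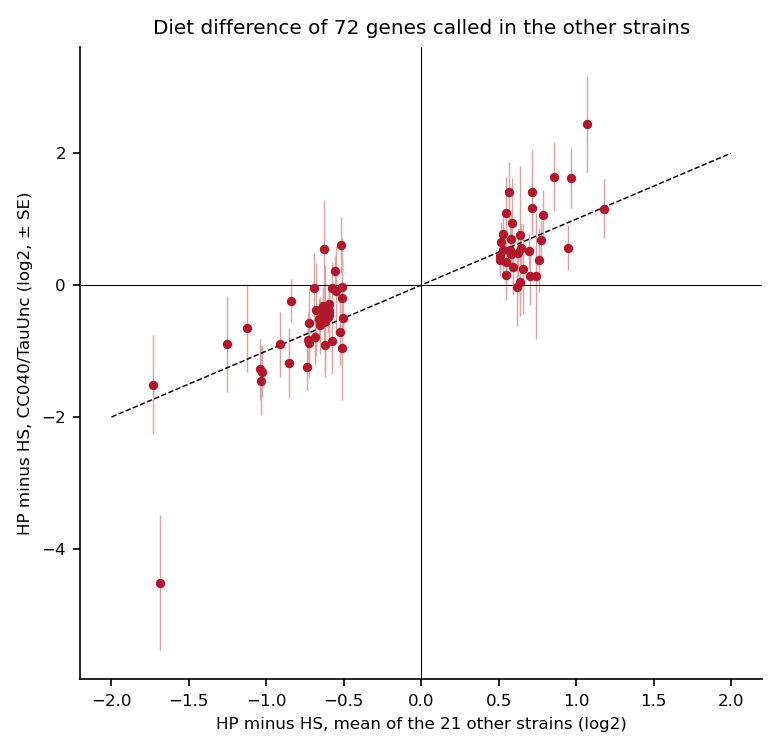
HP minus HS difference (log2) of 72 genes called in the other 21 strains with a size of at least 0.5, with the other strains on the x axis and CC040/TauUnc on the y axis (± SE), 1 point per gene, and a dashed line of equality. Of the points, 68 lie in the quadrants of equal sign, and *Serpina4-ps1*, at −4.51, lies farthest below the line.

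The difference between the diet responses was tested gene by gene, and 0 of 10942 genes passed (0%, limma), with 390 at an unadjusted p under 0.05. That count too is not above a share of 0.05 of the genes. The smallest p values belonged to *Mir669k*, *Sult3a2*, *Sult3a1*, *Adh7*, *Tm4sf1*, *Cotl1*, *Foxq1* and *Asgr2* (adjusted p of 0.479 to 0.598). *Sult3a1* and *Sult3a2*, female-biased amine sulfotransferases, had HP minus HS differences of +1.07 and +1.52 in CC040/TauUnc, beside −0.20 and −0.13 in the other strains. In CC040/TauUnc *Sult3a2* was 8.11, 9.95 and 8.59 on HP and 8.93, 7.19 and 5.97 on HS, and HS replicate 1 lay among the HP mice. Without that mouse the difference from the other strains was 2.43 for *Sult3a2* and 1.96 for *Sult3a1*, and both passed (adjusted p = 0.00106 and 3.89e-04). *Tm4sf1*, a tetraspanin-like surface protein, was 5.77, 5.58 and 6.23 on HP and 2.50, 6.04 and 5.07 on HS. It passed without HS replicate 2 (difference 2.05, adjusted p = 2.75e-04), which left HS replicate 1, at 2.50, as 1 of 2 HS mice. *Rarres1*, a retinoid-induced membrane protein that was picked out after its values were seen, also passed without HS replicate 2 (2.84, adjusted p = 0.00246).

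By gene list, the median HP minus HS difference had opposite signs in CC040/TauUnc and in the other strains for lists of several kinds. Cell type and immune lists were among them, with no single gene past the test of that difference. Of 16 Kupffer cell markers, 15 had HP minus HS above 0 in CC040/TauUnc (median +0.24) and 0 in the other strains (median −0.27), where 13 were called lower on HP. The difference of differences was above 0 for all 16 (0.15 to 0.94), 4 of them, *Vsig4*, *Cd68*, *C1qa* and *Fcgr1*, at an unadjusted p under 0.05, and 0 passed the adjustment. Of 30 interferon response genes, 25 had HP minus HS above 0 in CC040/TauUnc (median +0.23) and 2 in the other strains (median −0.14, 13 called lower), with 0 of the differences past the threshold. The value of a gene in the other strains is 1 mean over 21 strains, and single strains varied in sign. *Isg15* was higher on HP in 12 of the 21, *Usp18* in 10, *Oasl1* in 7 and the Kupffer cell marker *Fcgr1* in 3. Sinusoidal endothelial markers had a median of +0.29 in CC040/TauUnc (14 of 14 above 0) and −0.05 in the other strains (3 of 14), and lymphocyte markers +0.20 in CC040/TauUnc (7 of 8) and −0.10 in the other strains (0 of 8). The mean of the endothelial markers in CC040/TauUnc was 7.80, 7.97 and 8.00 on HP and 7.78, 7.79 and 7.35 on HS. HS replicate 3 lay apart, and the other HS mice were level with HP replicate 1. Class I and II antigen presentation genes had +0.12 in CC040/TauUnc (12 of 18) and −0.11 in the other strains (5 of 18). Over all genes the median in CC040/TauUnc was 0.003. Markers within a list move together in a sample, so these counts rest on 3 mice against 3 and not on the number of genes. Opposite signs were not limited to cell type and immune lists. Medians in CC040/TauUnc and in the other strains were +0.22 and −0.01 for proliferation genes and +0.13 and −0.03 for Cyp3a and Cyp4 enzymes. They were −0.03 and +0.12 for Cyp2a, Cyp2d and Cyp2j enzymes and −0.14 and +0.02 for growth hormone and STAT5 responsive genes. Among metabolic lists the 18 bile acid synthesis and control genes also differed in sign, with medians of −0.05 in CC040/TauUnc and +0.01 in the other strains, while others had the same sign in both. For 52 amino acid catabolism and urea cycle genes the median was +0.15 in CC040/TauUnc and +0.14 in the other strains, for 40 respiratory chain subunits +0.12 and +0.09, and for 20 cholesterol synthesis genes +0.41 and +0.11. For 20 male-biased liver genes it was −0.32 in CC040/TauUnc and −0.19 in the other strains. The cholesterol synthesis and uptake genes had HP minus HS above 0 for 20 of 20 in CC040/TauUnc, none called, and for 15 of 20 in the other strains.

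**Figure D5:**
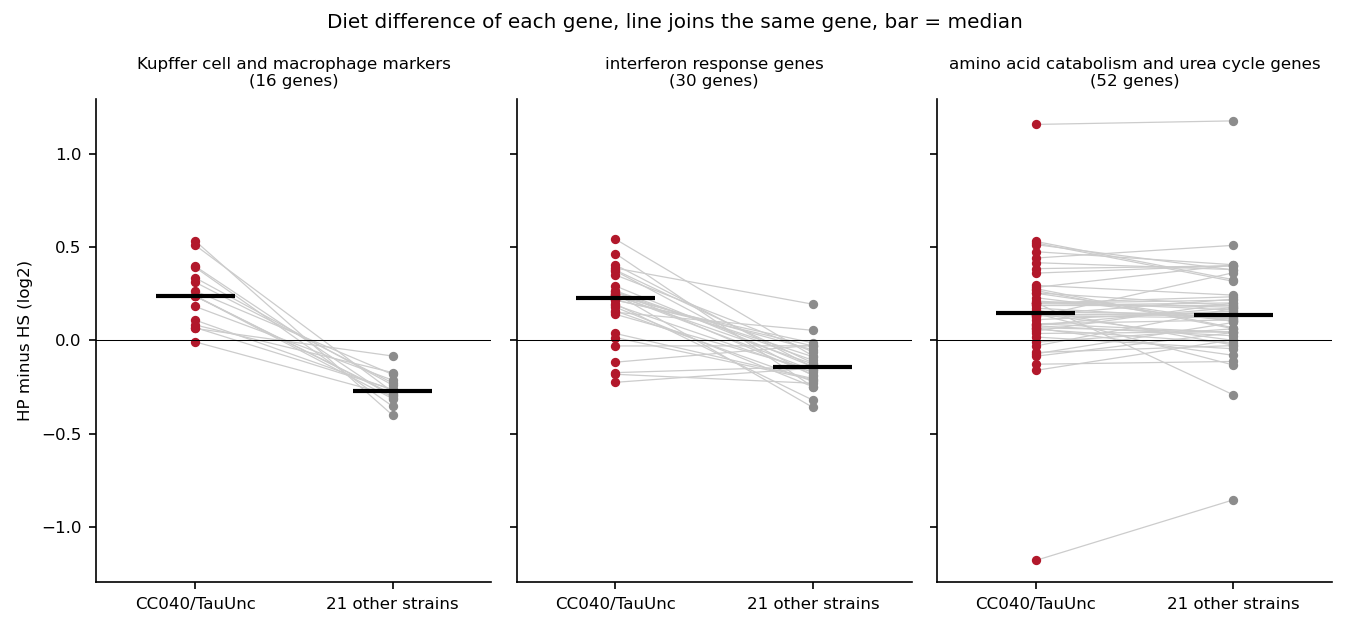
HP minus HS difference (log2) of each gene of 3 lists in CC040/TauUnc (red, left) and as the mean of the 21 other strains (grey, right), with lines joining the same gene and bars at the medians. Kupffer cell markers have medians of 0.24 and −0.27, interferon response genes 0.23 and −0.14, and amino acid catabolism and urea cycle genes 0.15 and 0.14.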

How the data were processed

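Liver RNA was hybridised to Affymetrix Mouse Gene 2.1 ST arrays, 1 per mouse. The deposited values were on the log2 scale, computed by the authors with RMA (background correction, sketch-quantile normalization, median polish), after the removal of 4 outlier arrays, each marked by all 3 methods used. Expression Console of Affymetrix is named in the submitters' processing notes, and the R package affy in the study's methods, without versions in the sources used here. No column of the table was without a mouse.

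Of 41345 transcript clusters, 23521 had 1 symbol in the platform annotation, 1820 several and 16004 none, and only the first were used (23328 matched RefSeq GRCm38.p6 by gene ID, which also supplied the promoters). The expression filter kept clusters above 4.08 (the mean of the medians of named clusters) in the median mouse or in over 12.5% of mice, and each gene was represented by its brightest cluster. Differences were fitted with limma 3.58.1 in R 4.3.3 and called at a Benjamini-Hochberg adjusted p under 0.05: CC040/TauUnc against the other mice with diet as a covariate, HP minus HS inside CC040/TauUnc in a model with a mean per strain and diet, and that difference minus the unweighted mean of the other 21 strains. The script was tested on simulated data.

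Named genes were the 12 higher and 12 lower with the largest called difference in which all 6 mice lay on one side of the others' median, genes without overlap, up to 3 called members of each gene list by p, and for diet the 8 of each direction and the 8 of the difference of differences. Genes outside this rule (further called members of a list, the sex-biased genes and those said to be so) were chosen after their values were seen. Members, lists and tests were chosen with earlier results of these data known, so a list's count is not independent support. Arrays have no read depth, and their number limits the precision.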

Additional observations from a re-analysis of the deposited data

Results flagged for a closer look

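In 5 of 82 named genes, 1 of the 6 CC040/TauUnc mice lay far from the other 5, with a gap above 0.625 of the whole range, and chance alone would give such a gap in about 1 group in 20. *Akr1c18* was 4.80 in HS replicate 2 and 2.64 to 3.42 in the other 5 mice. *Apcs* was 9.59 in HP replicate 2 and 7.75 to 8.25 in the others. *Oasl1* was 5.61 in HS replicate 2 and 6.17 to 6.46 in the others. *Sult1e1* was 6.30 in HS replicate 3 and 8.24 to 9.24 in the others. *Tm4sf1* was 2.50 in HS replicate 1 and 5.07 to 6.23 in the others.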

How the results depend on the processing

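For CC040/TauUnc against the other mice, 596 genes were called. The count was 66 with strain as a random block, 1832 with strain as a fixed term, 1613 with array weights, 68 in HP mice only and 97 in HS mice only, and it ran from 382 to 431 without 1 CC040/TauUnc mouse and from 565 to 644 without 1 of the other strains. All 596 had the same direction in HP mice and in HS mice, but they were selected in the fit of both, so this is no independent check. Of the 596, 68 were called in the fit of HP mice alone and 96 in that of HS mice alone. With no diet term, the excluded CC059/TauUnc mouse kept, the mouse with low *Xist* left out, other scalings, filters or variance priors, and a clock score as covariate it was within 1.5 times 596. Of 2640 alternative values of the 63 named genes, 2383 were past the threshold and 0 had the opposite sign. With the strain block 18 of the 63 remained called, 39 were called without any 1 of the 6 mice and 60 without any 1 of the other strains. Inside CC040/TauUnc, 2 genes were called by diet, 0 from the 6 mice alone or with the excluded mouse kept, 1 with centring, quantile normalization, a stricter filter or the trend and robust prior, and 4 without a filter or with array weights. Without 1 mouse there were 0 to 2, and the 2 called without HS replicate 1 (*Sult3a1*, *Sult3a2*) or HS replicate 2 (*Rarres1*, *Tm4sf1*) were other genes, higher on HP. The difference of differences had 0 calls, 2 without a filter and 0 to 2 without 1 mouse. List medians without HP replicate 1 and list counts with the strain block were added after seeing the data. No paired analysis was possible because replicate numbers were given in accession order and pair no mice. Probe detection was not checked, so a difference at the dim end of the array is the least certain.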

Other observations

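Several genes of signalling and cell structure, chosen after their values were seen, were lower in CC040/TauUnc in both fits and had the lowest of 22 strain means. *Plk2*, a stress-induced kinase, was 4.77 to 5.35 in CC040/TauUnc mice (median 5.00), against 4.72 to 6.71 in the other mice (median 6.04), and 5 of the others lay below the highest CC040/TauUnc mouse (strain-block adjusted p = 0.00116). *Itga1*, a collagen-binding integrin subunit, was 7.29 to 7.81 in CC040/TauUnc mice (median 7.63), against 7.46 to 8.59 in the other mice (median 8.23; strain-block adjusted p = 0.00111). *Farp1*, a guanine nucleotide exchange factor, was 5.25 to 6.01 in CC040/TauUnc mice (median 5.62), against 5.40 to 7.68 in the other mice (median 6.70), with 3 of the others below the highest CC040/TauUnc mouse (strain-block adjusted p = 0.00353). *Tbx20*, a T-box transcription factor best known from the heart, was 3.93 to 4.73 in CC040/TauUnc mice, against 4.46 to 5.87 in the other mice (strain-block adjusted p = 0.00492).

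*Tk1*, the thymidine kinase of dividing cells, was higher by 0.82 and was the only call of 8 proliferation genes, lost with the strain block (adjusted p = 0.507) and without HS replicate 3 (0.0695). *Creld2*, induced when proteins misfold, was lower by 0.64 and was the only call of 25 endoplasmic reticulum folding genes, lost with the strain block (adjusted p = 0.756) and without HP replicate 1, HP replicate 3, HS replicate 2 or HS replicate 3 (up to 0.131). These single calls stand beside 5.45% of all genes called in either direction. Of 18 class I and II antigen presentation genes and 14 Cyp2b and Cyp2c enzymes, 0 were called by limma with mice as replicates or with the strain block, with medians of 0.17 and 0.14.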
